A study of Vitis vinifera with 12 samples.

Results

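A set of 159 genes in Victoria grape berries (Vitis vinifera) stood lower at 80 days after full bloom than at 40, 50 and 60 days, with a limited change among those 3 earlier ages. They are 159 of the 22580 gene IDs measured. The genes were chosen by their own expression values. The mean of log2(FPKM + 1) at 80 days had to lie at least 1.5 below the lowest of the means at 40, 50 and 60 days, those 3 means had to span under 1.5, and the highest age mean had to lie from 5 to under 1000 FPKM. FPKM is fragments per kilobase of transcript scaled to library size, and 1 was added before taking logs, which understates changes in low genes. The drop at 80 days and the limit on change before it are therefore what defined the set, and they are described below as values that support nothing.

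Victoria is a white table-grape cultivar. All 12 libraries came from its fruit, with libraries a, b and c at each of 40, 50, 60 and 80 days after full bloom and no treatment or second genotype among them. The labels give the tissue only as fruit, so skin, pulp and seeds were not told apart. According to the protocols, RNA of several biological replicates was extracted separately and then pooled, so the 3 libraries of an age may be technical repeats, and spreads between them measure only that. Summed FPKM per library ran from 1058844 to 1395232, and 17710 to 18359 IDs were above 0. The absolute depth is unknown. Of the 12 libraries, c of the youngest fruit and a of the oldest stood apart most within their ages. "Day 40" and the like below count from full bloom.

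A grape berry grows first by cell division and cell expansion and stores organic acids. After a lag it passes veraison, the onset of ripening, when it softens, takes up hexose sugars and water, and loses chlorophyll. Many transcripts of young green berries are known to decline during ripening, some at veraison and others only as the fruit matures. The files give gene IDs without names, and none of the IDs matched the gene table at hand (0 matches), so no function is stated for any gene below and tissue markers could not be checked. In IDs of the form VIT_08s0007g08000 the first number is the chromosome, the second the scaffold and the last the gene's order along it.

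The fall at 80 days left most of these genes low but present. The median gene averaged 5.40 FPKM on day 80, against 27.5 FPKM on day 60, with quartiles of 2.24 and 13.5 FPKM on day 80 and 13.9 and 100.5 FPKM on day 60. The 80-day mean was a median 18.1% of the 60-day mean, with quartiles of 11.6% and 24.1%. In 29 of the 159 genes under 10% was left, and in 11 under 5%. All 3 libraries of 80 days were under 1 FPKM in 11 genes, while 35 genes still had at least 10 FPKM in every 80-day library. "Lost" thus describes a small part of the set, and "lowered" the rest. In bulk fruit, fewer cells of a type and less RNA per cell cannot be told apart.

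**Figure D1:**
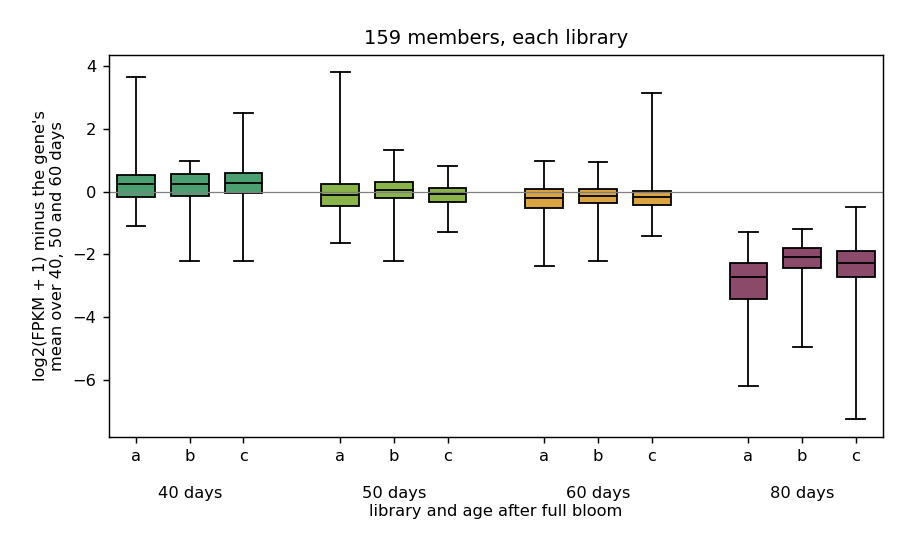
Level of the 159 genes in each of the 12 libraries, as log2(FPKM + 1) minus the gene's own mean over 40, 50 and 60 days; boxes show quartiles and median, whiskers the full range. The medians of the 9 earlier libraries lie between -0.18 and 0.27 and those of 80 days at -2.72 in library a, -2.09 in library b and -2.28 in library c.

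Measured as the rule measures it, the fall from the lowest earlier mean had a median of 1.96 on the log2 scale (range 1.50 to 5.17). It was under 2 in 85 genes, at least 2 in 74, at least 3 in 16 and at least 4 in 5. A linear model over all 12 libraries (limma, called at a Benjamini-Hochberg adjusted p under 0.05 and a difference of at least 1) found 156 of the 159 lower at 80 than at 60 days, where 6.80% of the 14743 tested genes were called lower. Since the rule used that contrast, the count only describes the set. The 156 were 15.6% of the 1003 genes called lower. The 80-day libraries lay below all 9 earlier libraries in 157 of the 159 genes, against 15.2% of tested genes, again a consequence of the rule. Each 80-day library taken alone lay at least 1.5 below the lowest earlier mean in 92 genes. The threshold was close for many: in 47 genes the fall exceeded 1.5 by less than its standard error.

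Together the 159 genes held a modest share of the transcript pool. They made up 1.62% ± 0.041 (SD, n = 3) of summed FPKM on day 40, 1.41% ± 0.079 on day 50, 1.19% ± 0.033 on day 60 and 0.217% ± 0.055 on day 80. The share was thus already lower at each step before 80 days. Its drop on day 80 follows from the choice of the genes. At 80 days library a held 0.153%, library b 0.249% and library c 0.248%.

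The largest fall was that of VIT_01s0011g02720. It had 451, 487 and 746 FPKM in libraries a, b and c on day 40, 112, 738 and 404 on day 50, 124, 308 and 358 on day 60, and 3.70, 26.6 and 1.27 on day 80. No 80-day library overlapped an earlier one, but the libraries of an age differed widely, with a standard error of 0.86 on a difference of -5.17 (80 minus 60 days, log2(FPKM + 1), as for all differences below). VIT_11s0016g05000 was far tighter. Its values were 57.3, 57.9 and 83.7 FPKM on day 40, 79.5, 50.3 and 68.9 on day 50, 36.9, 45.9 and 46.1 on day 60, and 0.663, 0.879 and 0.353 on day 80 (-4.76 ± 0.20 SE). At 80 days it stood at 1.47% of its 60-day mean, the lowest share of any gene in the set with a value above 0 at 80 days.

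VIT_14s0066g01850 was level through 60 days and then nearly gone. It had 153, 156 and 118 FPKM on day 40, 96.6, 129 and 106 on day 50, 98.3, 117 and 121 on day 60, and 3.18, 7.74 and 4.78 on day 80 (-4.24 ± 0.23 SE). VIT_07s0005g04130 went down at every age, with 79.2, 79.8 and 129 FPKM on day 40, 41.0, 47.1 and 57.1 on day 50, 19.5, 40.9 and 42.4 on day 60, and 0.646, 1.33 and 1.17 on day 80. Its earlier means spanned 1.497, just inside the 1.5 allowed, and it left the set in 4 of the 12 cases where 1 library was omitted.

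VIT_14s0068g00510 and VIT_08s0007g07690 followed with falls of 3.51 and 3.42. VIT_14s0068g00510 had 7.68, 5.22 and 3.29 FPKM on day 80, against 61.4, 72.8 and 73.4 on day 60. VIT_08s0007g07690 had 5.21, 14.7 and 28.5 FPKM on day 80, against 143, 159.8 and 151 on day 60. Library a was the highest of the 80-day libraries in the first of these genes and the lowest in the second, and in neither did an 80-day library overlap an earlier one.

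**Figure D2:**
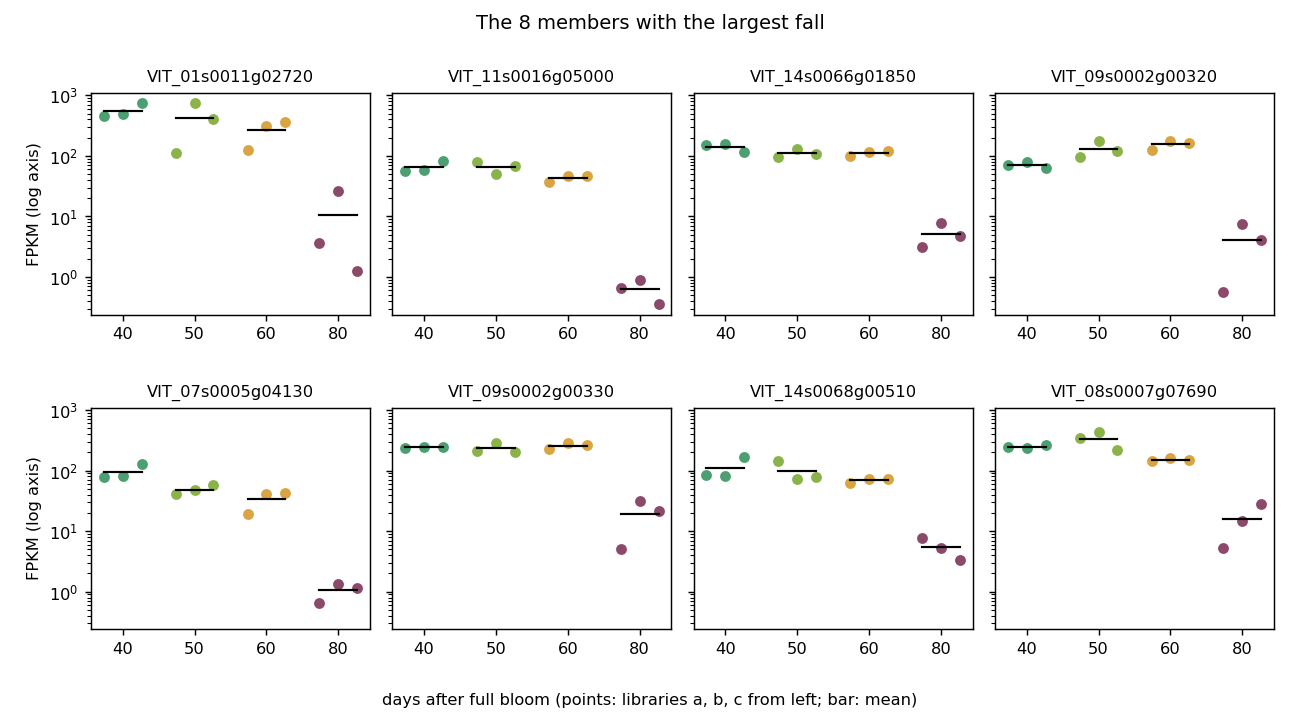
FPKM (log axis) of the 8 genes with the largest fall in every library; points are libraries a, b and c from left to right within each age, bars are age means. In all 8 the 3 points of 80 days lie below the 9 earlier points, and the points of VIT_01s0011g02720 are the most scattered.

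The 6 most abundant genes of the set had 46.2 FPKM or more in every 80-day library, and 4 of them had a fall below the set's median. VIT_09s0002g04020 was the highest on day 40, with 841, 854 and 1220.0 FPKM, then 448, 697 and 493 on day 50, 352, 586 and 485 on day 60, and 46.2, 77.1 and 82.0 on day 80. VIT_07s0031g00540 had 762, 779 and 555 FPKM on day 40, 587, 745 and 670.1 on day 50, 577, 870.5 and 844 on day 60, and 75.8, 115 and 161 on day 80. The first of these was called lower at 60 than at 40 days and the second was not. VIT_00s0533g00050, VIT_18s0001g05040, VIT_13s0064g00460 and VIT_05s0029g00420 completed the 6 highest. They kept 32.0%, 27.4%, 29.3% and 21.0% of their 60-day mean at 80 days.

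The share left overlapped between high and low genes. Genes whose highest mean was 100 FPKM or more kept a median of 19.3% of the 60-day mean (48 genes), those of 20 to 100 FPKM 19.9% (72 genes) and those of 5 to 20 FPKM 13.8% (39 genes). The lowest and highest values were 2.61% and 34.7%, 0% and 33.9%, and 3.21% and 37.8%, so the ranges overlapped almost entirely. The fall on the log2(FPKM + 1) scale was largest in the first group (median 2.18, against 1.94 and 1.82). The value added before taking logs limits how far a low gene can fall on that scale. It also makes the rule ask for a smaller share left in low genes. The medians of share and of fall are thus shaped by the rule, and neither compares high with low genes.

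**Figure D3:**
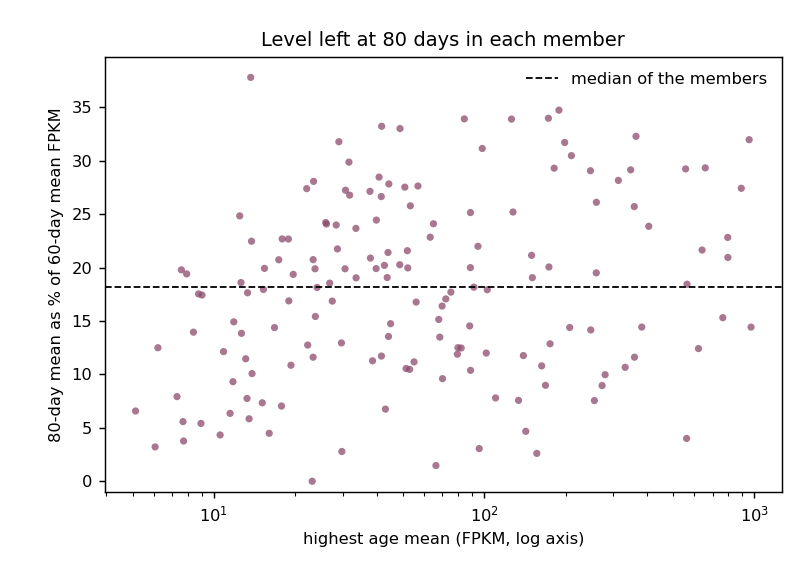
Mean FPKM at 80 days as a percentage of the 60-day mean, for each of the 159 genes against its highest age mean (FPKM, log axis). The points scatter between 0% and 37.8% around the median of 18.1%, and those of low and high genes overlap.

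Before 80 days the set was not uniform. The highest mean was on day 40 in 94 genes, on day 50 in 38 and on day 60 in 27, and the lowest of the first 3 means was on day 60 in 82. The span of those means was under 0.5 in 43 genes and at least 1 in 53. Its median was 0.79, against 0.52 over tested genes. The rule capped the span at 1.5 in the set alone. Libraries of an age also differed more in the set (median pooled SD 0.35, against 0.18 over tested genes), which widens a span. The 2 medians are therefore not a comparison of evenness. By the limma fit, 117 genes (73.6%) had no called change among the first 3 ages, where 80.1% of tested genes had none. Both the rule and this count use the same means, so the counts that follow describe the set only.

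A decline was already under way in some. Between 40 and 60 days 30 genes were called lower (background 10.3% of tested genes) and 3 higher (background 5.51%). Between 40 and 50 days 19 were lower (background 8.43%) and 1 higher (background 3.44%). From 50 to 60 days 2 were lower (background 2.31%) and 2 higher (background 2.01%). The 30 genes already lower on day 60 had median levels of 62.4 FPKM on day 40, 26.004 on day 60 and 4.18 on day 80. The 117 genes without a call had 38.6, 27.5 and 5.60 FPKM.

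The flattest gene was VIT_15s0021g00220, whose first 3 means spanned 0.03. Its libraries read 116, 124 and 138 FPKM on day 40, 128, 127 and 121 on day 50, 119, 122 and 129.8 on day 60, and 32.5, 43.7 and 49.3 on day 80 (-1.56 ± 0.13 SE). VIT_14s0083g01160 was nearly as even, with 157 to 193 FPKM over the 9 earlier libraries and 41.2, 57.1 and 61.3 at 80 days (-1.77 ± 0.13 SE). In both, the 9 earlier values lay closer together than the 3 values of 80 days did in proportion, and the 80-day values stood clear below. VIT_06s0004g04610 had means of 11.8, 11.8 and 11.3 FPKM at 40, 50 and 60 days, and 0.846, 2.03 and 2.19 FPKM at 80 days. VIT_13s0019g03060 had means of 31.8, 31.5 and 30.3 FPKM, and 9.03, 9.86 and 5.48 FPKM at 80 days.

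Other genes climbed before they fell. VIT_13s0067g01070 was even at 40 and 50 days, with 29.2, 30.7 and 37.3 and then 35.7, 36.1 and 28.0 FPKM. It stood at 91.8, 88.4 and 86.9 FPKM on day 60 and at 6.90, 10.3 and 10.5 on day 80. The 60-day libraries were thus the highest and the 80-day libraries the lowest of the 12, with no overlap, and its libraries lay closer together than those of the other two rising genes (-3.16 ± 0.15 SE). VIT_05s0102g00450 had 145, 132 and 125 FPKM on day 60 after 44.2 to 64.9 in the 6 earlier libraries, and 1.74, 20.7 and 8.01 on day 80. VIT_01s0026g00980 had 20.8, 23.6 and 44.5 FPKM on day 40, 45.5, 43.1 and 35.8 on day 50, 89.9, 74.0 and 74.8 on day 60, and 3.53, 11.4 and 13.4 on day 80. In those genes the difference between 80 and 60 days (-4.05 ± 0.53 and -3.10 ± 0.38 SE) was larger than the fall by the rule (2.64 and 1.64), which starts from the lower 40-day mean.

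The steepest earlier declines were in VIT_07s0005g04130, described above, VIT_07s0141g00600 and VIT_06s0009g02500. VIT_07s0141g00600 had 176, 155 and 187 FPKM on day 40, 80.7, 84.2 and 86.4 on day 50, 59.2, 66.0 and 57.8 on day 60, and 18.5, 20.8 and 22.9 on day 80. No age overlapped another, and its libraries agreed better than those of any other gene of the set (pooled within-age SD 0.12 on the log2 scale). VIT_06s0009g02500 had 234, 229 and 356 FPKM on day 40, 172, 186 and 195 on day 50, 108, 96.6 and 82.3 on day 60, and 7.03, 10.1 and 8.56 on day 80. Both declined at every step, so by 60 days much of their early level had gone.

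A single gene, VIT_18s0001g08870, was called in opposite directions before 80 days. It had 19.3, 18.0 and 10.8 FPKM on day 40, 5.66, 6.63 and 5.31 on day 50, 11.9, 15.1 and 15.6 on day 60, and 0.0833, 1.62 and 0.210 on day 80. The 50-day libraries lay below all those of 40 and 60 days (-1.27 for 50 minus 40 days and 1.14 for 60 minus 50 days). VIT_11s0016g01020 was the single gene called higher at 50 than at 40 days. It had 7.11, 11.3 and 4.77 FPKM on day 50, against 2.57, 2.41 and 4.21 on day 40, and 0.0333, 0.123 and 0.365 on day 80. These genes were singled out after their values were seen.

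The libraries of 80 days were not equal for this set. Library a held the lowest of the 3 values in 115 of the 159 genes (72.3%), library b in 14 and library c in 28. These counts are not independent of the choice of the genes, since a low value in any 80-day library lowers the mean that the rule used. Among the other 847 genes called lower at 80 than 60 days library a was lowest in 54.3%, and among all tested genes in 34.8%. The median gene of the set had in library a 51.4% of the mean of libraries b and c, whereas the median tested gene had 102%. Of the genes with a fall from 2 to under 3, library a was lowest in 50 of 58, of those with a smaller fall in 53 of 85 and of those with a larger fall in 12 of 16. Values in VIT_09s0002g00330 show it, with 4.99, 31.5 and 21.5 FPKM in libraries a, b and c, as does VIT_05s0102g00450 above. No label separates library a from the others, and its part in the result was not tested. Without it the rule found 138 genes, 130 of them among the 159, so 29 were lost. Without library b it found 192 genes, of which 155 were among the 159, so 4 were lost. Without library c of the youngest fruit it found 151, of which 143 were among the 159, and without that library and the oldest library a together, an omission chosen after seeing the data, 129, of which 116 were.

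**Figure D4:**
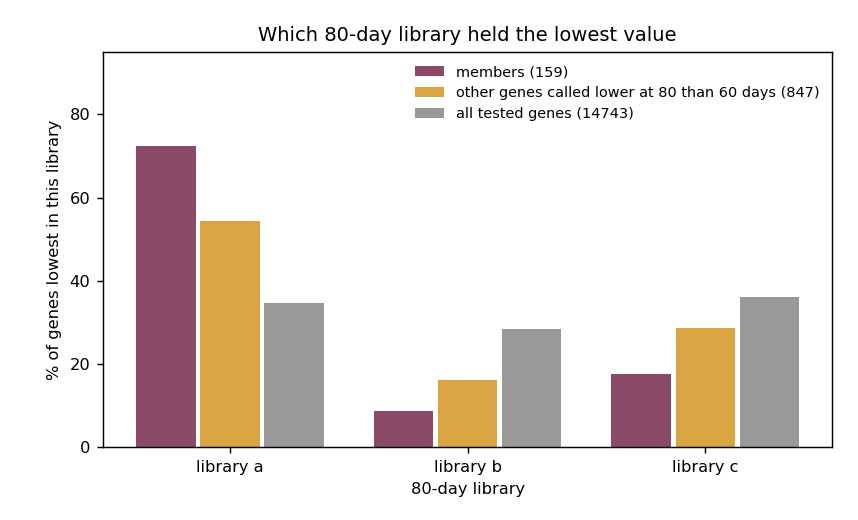
Percentage of genes whose lowest 80-day value was in library a, b or c, for the 159 genes, for the other 847 genes called lower at 80 than 60 days, and for all 14743 tested genes. Library a holds the lowest value in 72.3%, 54.3% and 34.8% of genes in these 3 classes; ties are counted in no library.

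Earlier ages showed smaller imbalances of the same kind. At 50 days libraries a, b and c were lowest in 44.7%, 11.9% and 43.4% of the genes (36.5%, 26.5% and 36.6% of tested genes). At 60 days they were lowest in 46.5%, 16.4% and 36.5% (38.9%, 30.2% and 30.3% of tested genes). Library a was thus the most often lowest at 50 and 60 days too, by a small margin over c at 50 days. At 40 days library c was both lowest in 45.9% and highest in 47.2% of the genes (37.8% and 43.7% of tested genes), so its values lay at the extremes in either direction. Replicates of the set were looser than those of the typical tested gene, and so were those of the genes with the opposite profile, raised only after 60 days. The pooled within-age SD had a median of 0.35 on the log2 scale in the set, 0.37 in the 64 tested genes of the opposite profile and 0.18 over tested genes. The median standard error of the difference between 80 and 60 days was 0.25, 0.27 and 0.15 in the same order. The set and the opposite class were chosen on values of these same libraries, so the medians only describe them.

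Membership of some genes rested on few libraries. When each of the 12 libraries was omitted in turn, 101 genes (63.5%) met the rule every time and 58 failed it at least once. In all, 3 genes were not called lower at 80 than 60 days. VIT_00s0227g00080 was listed at 57.0, 0 and 0 FPKM on day 40, 64.2, 0 and 5.11 on day 50, 0, 0 and 39.7 on day 60, and 0 in every 80-day library, so 4 libraries carry its whole profile. VIT_01s0011g05180 was high in library c at 40 days (2.75, 1.30 and 27.6 FPKM in a, b and c), and had 4.26, 1.74 and 2.50 FPKM on day 60 and 0, 0.287 and 0.0817 on day 80. VIT_06s0004g04640 had 27.6, 55.6 and 52.7 FPKM on day 80, against 42.9, 257 and 228 on day 60, so library a on day 60 lay among the 80-day values. These include the only pair of genes whose 80-day libraries overlapped or tied with earlier ones, VIT_00s0227g00080 and VIT_06s0004g04640.

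In a few genes library a stood well below libraries b and c at both 50 and 60 days. VIT_06s0004g04640 had 93.3 FPKM in library a at 50 days, against 374 and 398 in b and c, and VIT_01s0011g02720 had 112, against 738 and 404. VIT_01s0011g02710, the next tested gene to VIT_01s0011g02720, had 502 FPKM in library a on day 50, against 2163 and 1090.5 in b and c, and 598 on day 60, against 1130.2 and 935. These 3 genes were picked after their values were seen.

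At the edge of the rule, the genes just inside were VIT_19s0015g00320, VIT_18s0001g09910 and VIT_18s0001g12100, with falls of 1.515, 1.507 and 1.504. Just outside lay VIT_08s0007g01130, VIT_15s0046g02030 and VIT_13s0064g01510, with 1.4995, 1.491 and 1.489. VIT_18s0001g12100 had 2.998, 2.61 and 3.15 FPKM on day 80 after a 50-day mean of 10.1, and VIT_08s0007g01130 had 9.58, 11.9 and 7.76 FPKM on day 80 after a 60-day mean of 29.9. These genes differ in level, and their falls are close because they were taken from the edge of the rule. In all 246 genes fell by at least 1.5, of which 75 were left out because their earlier means spanned 1.5 or more, 9 because they reached 1000 FPKM and 3 because they stayed under 5 FPKM.

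The genes were spread over every chromosome. By their IDs, 157 carry a VIT_ name and 2 are called newGene (1.26%, against 2.22% of tested genes). Chromosome 18 held 16, chromosome 7 held 15 and chromosome 8 held 13, which is 1.48%, 1.79% and 1.39% of the tested genes there. Chromosomes 2, 10, 15 and 16 held 3 each, between 0.545% and 0.711% of theirs. In all, 159 of the 14743 tested genes were in the set. Chromosomes 18, 7 and 8 held 10.1%, 9.43% and 8.18% of the set and 7.35%, 5.67% and 6.34% of all tested genes. Departures of single chromosomes were not tested. A further 11 genes have IDs that place them on no chromosome. Next to another gene of the set, counting neighbours among tested genes on a scaffold, lay 5 of the 157 (3.18%), in 1 run of 3 and 1 pair. Of the tested genes outside the set, 2.02% lay next to one of its genes.

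The run of 3 was on chromosome 8. VIT_08s0007g07990 had 17.1, 8.37 and 35.6 FPKM on day 40, 43.3, 56.3 and 25.4 on day 50, 26.5, 15.4 and 7.53 on day 60, and 0.874, 3.51 and 1.42 on day 80. VIT_08s0007g08000 had 57.3, 41.6 and 133 FPKM on day 40, 240.05, 209 and 76.7 on day 50, 125, 79.8 and 67.7 on day 60, and 4.07, 22.4 and 8.55 on day 80. VIT_08s0007g08010 had 133, 112 and 321 FPKM on day 40, 386, 278 and 116 on day 50, 161, 94.8 and 65.8 on day 60, and 20.2, 49.0 and 14.8 on day 80. Several libraries were high or low in all 3 genes: library c was the highest on day 40 and the lowest at 50 and 60 days, and library b the highest on day 80. Others differed. On day 50 library b was highest in VIT_08s0007g07990 but library a in VIT_08s0007g08000 and VIT_08s0007g08010. On day 80 library c was lowest in VIT_08s0007g08010 but library a in VIT_08s0007g07990 and VIT_08s0007g08000. Each peaked at 50 days, and their differences between 80 and 60 days were -2.52 ± 0.54, -3.09 ± 0.60 and -1.98 ± 0.56 SE. The last difference was -1.64 without library a on day 60, -1.85 without library a on day 80 and -1.64 without library c on day 80, and in these 3 cases the gene was no longer called.

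On one side of that run the pattern ended and on the other it went on. VIT_08s0007g07970 stayed between 18.1 and 27.8 FPKM in all 12 libraries. VIT_08s0007g08020 had 58.9, 61.1 and 347 FPKM on day 40, 499.7, 490.4 and 293 on day 50, 953, 641 and 558 on day 60, and 7.38, 86.4 and 25.7 on day 80. It fell by 2.02 but was left out for its climb before (span 2.68), and shared the high library c on day 40 and library b on day 80. Values of neighbours with near-identical sequence are uncertain, since shared fragments may have been split between them.

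**Figure D5:**
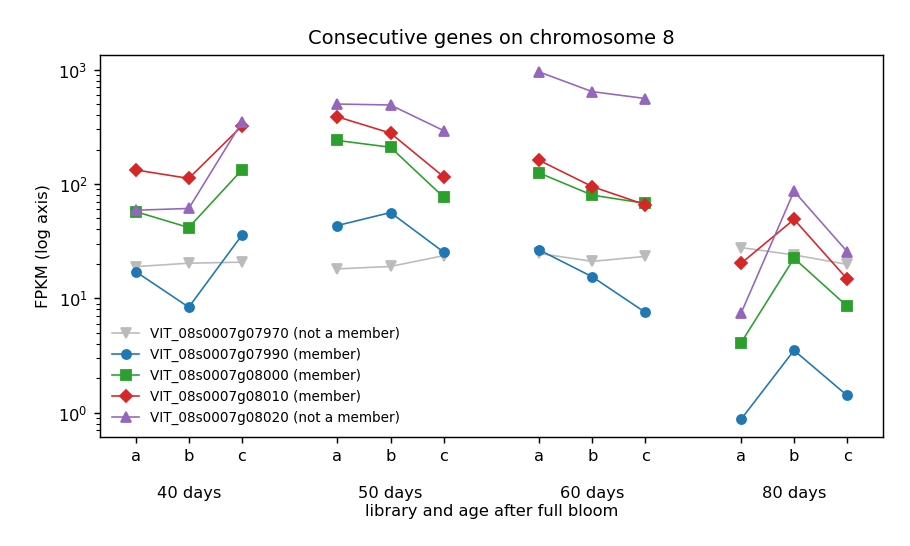
FPKM (log axis) of 5 consecutive tested genes of chromosome 8 in the 12 libraries; lines join libraries of the same age. The 3 genes of the set and VIT_08s0007g08020 share several high and low libraries, while VIT_08s0007g07970 stays between 18.1 and 27.8 FPKM.

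The pair on chromosome 9 was VIT_09s0002g00320 and VIT_09s0002g00330, both among the largest falls. VIT_09s0002g00320 had 69.7, 80.1 and 62.6 FPKM on day 40, 94.8, 177 and 121 on day 50, 127, 179 and 163 on day 60, and 0.571, 7.59 and 4.10 on day 80 (-5.25 ± 0.48 SE). VIT_09s0002g00330 was level, with 238, 244 and 249 FPKM on day 40, 211, 289 and 200.1 on day 50, 225, 281 and 261 on day 60, and the 80-day values above (-3.97 ± 0.46 SE). Library a was lowest and library b highest at 80 days in both. The tested gene after them, VIT_09s0002g00340, was higher in each 80-day library, with 309, 201 and 231 FPKM on day 80, against 142, 157 and 163 on day 60. Counting every gene that fell by at least 1.5, 8 of the 157 genes had such a neighbour (5.10%), against 3.17% of tested genes outside the set. Beside the run and the pair these were VIT_01s0011g02720, VIT_17s0000g00820 and VIT_06s0004g05400. VIT_01s0011g02710 and VIT_17s0000g00830, neighbours of VIT_01s0011g02720 and VIT_17s0000g00820, were left out for reaching 1000 FPKM, and VIT_06s0004g05380 for its span of 2.03.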

How the data were processed

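The authors deposited 1 table of FPKM values per gene ID and library. Cufflinks, TopHat2, edgeR, FastQC and Trimmomatic 0.36 are listed, with no roles, in the submitters' processing notes; build, annotation and settings were not given in those sources. All 12 columns were matched to samples by their descriptions. FPKM keeps no fragment counts, so depth is unknown and no count model was run. An exact 0 may be a failed estimate.

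Age means of log2(FPKM + 1) selected the genes. The members, lists and tests were chosen with earlier results of these data known. The 14743 genes that reached 1 FPKM in 3 or more libraries were fitted with limma 3.58.1 in R 4.3.3 (1 mean per age, intensity trend, 8 residual degrees of freedom), with p-values adjusted by Benjamini-Hochberg over all of them. The fit was tested on simulated data. Gene lists by product name could not be filled, since no ID has a name. Genes named were the 8 largest falls, 6 highest levels, 4 flattest, 3 largest rises and 3 largest declines from 40 to 60 days, 3 largest spreads, those overlapping earlier ages, the longest run of neighbours and 3 on each side of the threshold. Others are said to be chosen after their values were seen or are neighbours, and no sequence was at hand. The alternatives were other pseudocounts, filters, scalings and thresholds, the letter as a block, fits of 2 ages, and leaving out each library. Python 3.11.15, numpy 2.4.6 and pandas 2.3.3 were used.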

Additional observations from a re-analysis of the deposited data

How the results depend on the processing

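The pseudocount and the threshold set the size of the set: 159 genes became 76 with a pseudocount of 5 (74 of them among the 159), 74 with a fall of at least 2 and 368 with a fall of at least 1. With single libraries left out there were 138 to 192, with a pseudocount of 0.1 there were 216, and 151 or 186 with median-of-ratios scaling or a sum of 1000000. Without 2 libraries together (c of 40 days, a of 80 days), an alternative chosen after seeing the data, 129 genes met the rule, 116 of them among the 159. Scaling moved the median difference between 80 and 60 days over tested genes to 0.02 (median-of-ratios) or -0.13 (sum), against -0.01 as deposited. Members lower at 80 than 60 days numbered 143 to 157 under all alternatives. Members changed from 40 to 50 days (20) numbered 8 with a pseudocount of 5, 12 with median-of-ratios scaling and 57 with no minimum difference. From 50 to 60 days (4) there were 2 with a pseudocount of 0.1, 8 with only the 2 ages fitted, 11 with no minimum difference and 2 to 8 with single libraries left out. From 40 to 60 days (33) there were 69 with no minimum difference. Within 50 gene numbers, 9 genes had a neighbour in place of 5. The cause of these moves was not tested, beyond what a changed threshold sets by construction. Of 32 named genes under 17 alternatives each, none changed sign, VIT_08s0007g08010 lost its call in 3, and VIT_01s0011g05180 and VIT_06s0004g04640 gained one in 3 each. Deviations of libraries with the same letter correlated only weakly, between -0.16 and 0.19. They were over 0.1 in 4 of 18 pairs, and the best match had the same letter in 6 of 18. With 3 libraries per age, as many same-letter matches would arise on average without pairing. In the set, library a was the most often lowest at 50, 60 and 80 days (44.7%, 46.5% and 72.3% of the genes). Over tested genes it was lowest in 36.5%, 38.9% and 34.8% at those ages. At 40 days it was lowest in 27.7% of the set (32.1% of tested genes) and library c in 45.9% (37.8%). The shares in the set are not independent of the choice of the genes. Weak correlations cannot decide whether the letters pair the libraries. With the letter as a replicate block 157 genes were called lower at 80 than 60 days, VIT_06s0004g04640 among them.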

Other observations

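The opposite profile was rarer. By the mirrored rule, 66 genes stood at least 1.5 (log2) above every earlier mean at 80 days, with the same limits on span and level. Of the 64 of them that were tested, 40 were highest in library a at 80 days, 4 in library b and 20 in library c. These counts are not independent of the choice of the genes. A high value in any 80-day library raises the mean that the mirrored rule used, and the same holds for the deviations that follow. Their median deviation from the 80-day mean was 0.29 in library a and -0.26 in library b on the log2 scale, against -0.36 and 0.23 in the 159 falling genes. Over all tested genes the median deviation of library a was 0.02.

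Another 9 genes had the profile of the set but reached 1000 FPKM. The most abundant, VIT_13s0064g01260, had 4653, 4242 and 5153 FPKM on day 40, 4808, 5556 and 3885 on day 50, 3482, 3408 and 3023 on day 60, and 117, 578 and 384 on day 80. VIT_13s0019g04280 had 372, 386 and 450.1 FPKM on day 80, against 1790.1, 1708 and 1564 on day 60. Beside the set's VIT_17s0000g00820, VIT_17s0000g00830 had 99.0, 462 and 500.0 FPKM on day 80, against 2313, 2861 and 2780.2 on day 60. In all 9 of these genes library a was the lowest of the 80-day libraries, against 34.8% of tested genes. That count is not independent of the choice of the genes, since a low 80-day value lowers the mean that the rule used. These genes were picked after their values were seen.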
